A study of Homo sapiens with 40 samples.

Results

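Replication forks are built from a small set of protein machines, and this account follows the mRNAs of 39 of their components and of the enzymes that supply deoxynucleotides. The genes were chosen by symbol: PCNA, RFC1 to RFC5, DSCC1, CHTF18, POLA1, POLA2, PRIM1, PRIM2, POLD1, POLD2, POLD3, POLE, POLE2, CDC45, GINS1 to GINS4, TOPBP1, CLSPN, TIMELESS, TIPIN, WDHD1, RPA1 to RPA3, FEN1, LIG1, DNA2, CHAF1A, CHAF1B, RRM1, RRM2, TYMS and TK1. All 39 were found among the 60708 genes counted, and all 39 passed the filter on low counts in each of 7 comparisons. RNA-seq was available for 24 libraries in 8 groups of 3. MI-spheres were grown from MCF-10A, a non-malignant human mammary epithelial line, and MII-spheres from MCF-10AneoT, its derivative transformed with oncogenic HRAS. Both were grown in 3D in ultra-low attachment plates and left unstimulated (MI Ctrl, MII Ctrl) or stimulated with TGFβ1 at 2.5 ng/ml for 16 h (MI TGFb, MII TGFb). The other 4 groups were 2D cultures of MDA-MB-231, a triple-negative breast carcinoma line. The first pair was the WT group and SLUG KO, made by editing exon 1 of SNAI2 (the gene of SLUG) with CRISPR/Cas9 and expanding colonies from single cells, and how many clones the 3 libraries represent is not given in the sources used here. The second pair, sequenced in another batch, was transfected with a control siRNA (Csi) or with siRNAs to SMAD2, SMAD3 and SMAD4 together (siSMAD2/3/4).

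At each fork the CMG helicase, made of CDC45, the MCM ring and the GINS complex, unwinds DNA, and the RPA trimer coats the exposed strand. Polymerase α with primase lays down primers, the RFC clamp loader places the PCNA ring on them, and polymerases δ and ε extend from there. FEN1, DNA2 and LIG1 turn Okazaki fragments into a continuous strand, CAF-1 deposits histones behind the fork, and claspin with TIMELESS and TIPIN links fork progress to checkpoint signaling. Ribonucleotide reductase, thymidylate synthase and thymidine kinase supply deoxynucleotides. Transcription of many of these genes is known to peak around entry into S phase under E2F control. In bulk RNA, a different share of cells in S phase and a different amount of transcript per cell cannot be told apart.

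Between 14124688 and 38406952 fragments were counted per library. CPM are counts scaled to library size by TMM within an experiment, which was the 12 sphere libraries, the 6 WT and SLUG KO libraries or the 6 siRNA libraries. A gene was called when its adjusted p in edgeR's quasi-likelihood test was under 0.05, and a DEG also had an absolute log2 fold-change above 1. Log2 CPM of libraries of 1 group correlated across genes with r of 0.984 or more, except in WT, where r ranged from 0.952 to 0.989 and WT replicate 2 stood apart. The epithelial cadherin CDH1 was at 506 to 713 CPM in spheres and at 0.801 to 19.2 CPM in MDA-MB-231, and the mesenchymal filament VIM at 1.55 to 10.6 CPM and 609.8 to 1049 CPM. TP63, a basal epithelial marker, was at 47.6 to 52.2 CPM in MI Ctrl but at only 0.461 to 0.72 CPM in MII Ctrl. Leukocyte markers summed to at most 0.74 CPM in any library. Markers of other lineages were not all absent. Endothelial markers (PECAM1, CDH5 and VWF) summed to 112.7 to 115 CPM in MII Ctrl, 30.5 to 33.8 CPM in MI Ctrl and at most 9.32 CPM in MDA-MB-231. Fibroblast markers (COL1A1, COL1A2, PDGFRB, DCN and LUM) summed to 52 to 124.5 CPM in MDA-MB-231 and at most 25.7 CPM in spheres. HRAS was at 38.7 to 40.4 CPM in MI Ctrl and at 213 to 219 CPM in MII Ctrl.

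TGFβ stimulation of MII-spheres raised the replication fork genes nearly as a whole. Of the 39 genes, 37 rose and none fell, with a median log2 fold-change of 0.99. Of all 16396 genes tested, 29.9% rose and 27.6% fell, with a median of -0.02. Among the 39, 19 rose as DEGs, where 3.12% of all genes tested did. In 37 of the 39 the CPM of the stimulated and unstimulated libraries did not overlap, as in 61.6% of all genes tested. POLE and TOPBP1 were not called, at 0.04 ± 0.06 and 0.03 ± 0.05 (log2 fold-change ± SE, as in all comparisons that follow). No member fell at an unadjusted p under 0.05 or with DESeq2.

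**Figure D1:**
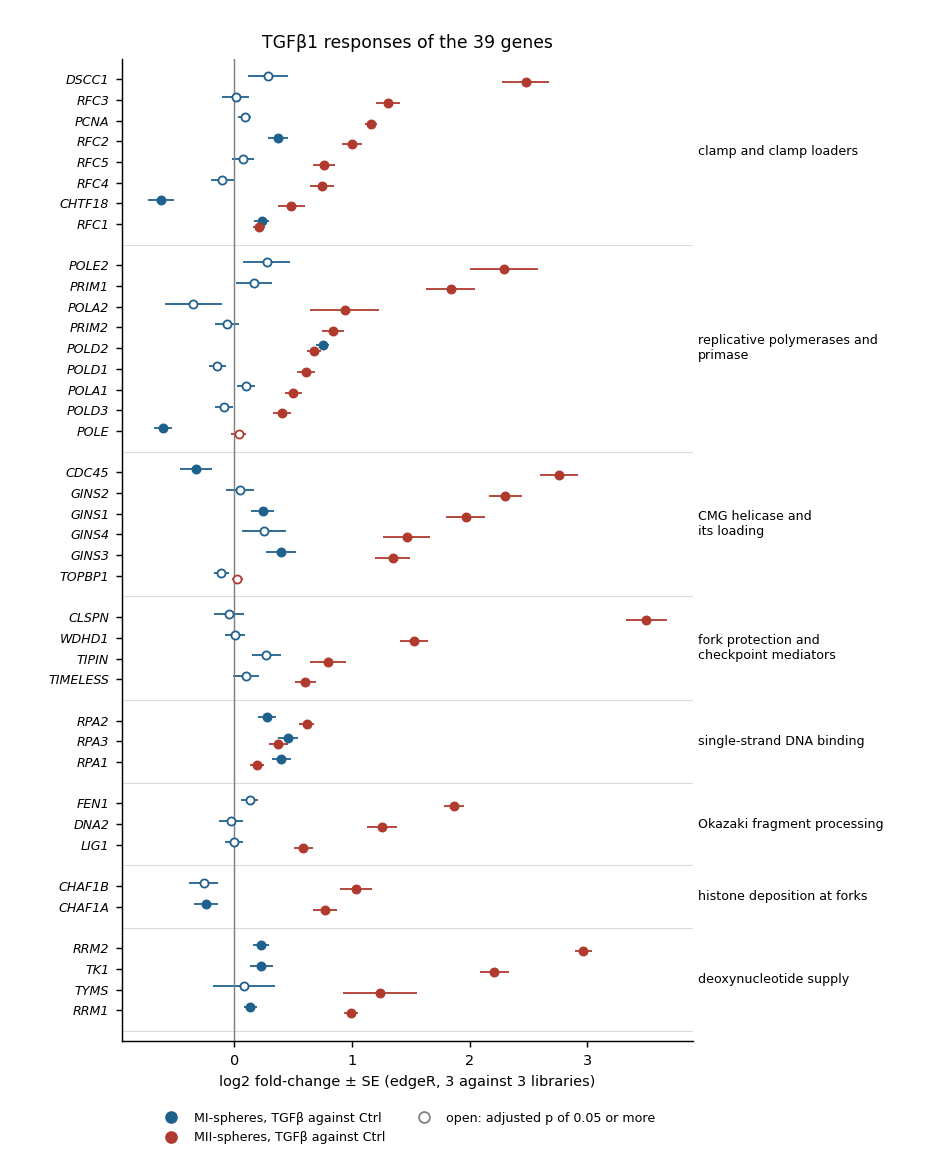
Log2 fold-change (x axis, ± SE) of each of the 39 genes after TGFβ1 in MI-spheres and MII-spheres, grouped by role, with open symbols where the adjusted p was 0.05 or more. In MII-spheres 37 genes lie to the right of 0 with filled symbols and CLSPN is farthest at 3.50, while in MI-spheres no gene lies above the 0.75 of POLD2.

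Fork protection held the gene with the highest log2 fold-change. CLSPN (chr1:35720218-35769978, GRCh38.p13, minus strand) encodes claspin, the adaptor through which ATR activates CHK1 at stalled forks. It was at 1.18, 0.988 and 1.09 CPM in the 3 unstimulated MII libraries and at 12.7, 12.2 and 12.4 CPM in the stimulated ones, on counts of 18 to 30 and 184 to 191. The groups were far apart, and the fitted difference was 3.50 ± 0.17, adjusted p = 5.29e-24. WDHD1, which couples the helicase to polymerase α, followed with 1.53 ± 0.12, then TIPIN with 0.79 ± 0.15. TIMELESS, the partner of TIPIN, had the lowest value of the 4, from 12.4, 14.1 and 14.6 CPM to 21.4, 22.7 and 20.1 CPM (0.60 ± 0.09, adjusted p = 8.73e-08).

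Deoxynucleotide supply rose at all 4 genes, 3 of them as DEGs. RRM2 (chr2:10120698-10211725, plus strand) encodes the small subunit of ribonucleotide reductase, known to limit the enzyme outside S phase. It was at 9.68, 8.59 and 8.09 CPM without and at 71, 69.5 and 68.8 CPM with TGFβ1 (2.97 ± 0.07, adjusted p = 3.55e-37). RRM1, the large catalytic subunit, had the lowest value of the group, from 41.9, 39.1 and 37.7 CPM to 79.1, 85 and 76.4 CPM (0.99 ± 0.06, adjusted p = 6.46e-21). The subunits moved unequally, and the ratio of RRM2 to RRM1, each per kb of exon, was 0.103 ± 0.00386 (SD, n = 3) without and 0.403 ± 0.0216 with TGFβ1. TK1, which phosphorylates salvaged thymidine, rose by 2.21 ± 0.12. TYMS, which makes dTMP from dUMP, rose by 1.24 ± 0.31 on counts of 9 to 32 in unstimulated libraries, and 47.5% of its exon length overlaps TYMSOS and ENOSF1 on the other strand, so its counts are uncertain in unstranded counting.

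Among genes of the CMG helicase and its loading, 5 of 6 rose, all 5 as DEGs. CDC45 (chr22:19479457-19520612, plus strand) went from 2.09, 1.35 and 1.91 CPM to 12.2, 11.5 and 12 CPM (2.76 ± 0.16, adjusted p = 1.18e-20). The GINS proteins form a complex of equal parts, yet their log2 fold-changes spread from 1.35 ± 0.15 for GINS3 and 1.46 ± 0.20 for GINS4 to 1.97 ± 0.16 for GINS1 and 2.30 ± 0.14 for GINS2. For GINS3 and GINS4, 10.9% and 23.4% of the exon length is shared with other genes. TOPBP1, needed for CDC45 loading and for ATR activation, was at 85.9, 80.9 and 80.4 CPM without and at 91.4, 82.2 and 83.5 CPM with TGFβ1, and the groups overlapped.

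Replicative polymerases and primase rose at 8 of 9 genes, 2 of them as DEGs. POLE2, an accessory subunit of polymerase ε, was at 0.785, 0.626 and 0.82 CPM before and at 2.39, 3.6 and 4.97 CPM after stimulation (2.29 ± 0.29, adjusted p = 1.93e-09), on only 12 to 19 counts in the unstimulated libraries. POLE, the catalytic subunit of the same enzyme, was at 36.2, 35.5 and 38.1 CPM and then at 37.7, 39.8 and 37.6 CPM, and the groups overlapped. PRIM1, the catalytic primase subunit, rose by 1.84 ± 0.21, and its partner PRIM2 by 0.84 ± 0.09. The polymerase δ genes POLD1, POLD2 and POLD3 rose by 0.61 ± 0.08, 0.68 ± 0.06 and 0.40 ± 0.08. The polymerase α genes POLA1 and POLA2 rose by 0.50 ± 0.07 and 0.94 ± 0.29, and 39.4% of POLA2 and 22.2% of PRIM1 is shared with other genes.

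The clamp and its loaders rose at all 8 genes. PCNA (chr20:5114953-5126626, minus strand) was at 50.2, 48.5 and 51.4 CPM without and at 115, 115 and 114 CPM with TGFβ1 (1.16 ± 0.05, adjusted p = 1.58e-26). DSCC1, a subunit of the alternative CHTF18 loader that acts in sister chromatid cohesion, had the highest value of the group, from 1.05, 1.32 and 1.26 CPM to 8.15, 6.35 and 6.58 CPM (2.48 ± 0.20, adjusted p = 2.34e-15). CHTF18 itself rose by 0.48 ± 0.11. The loader subunits differed, with RFC3 at 1.31 ± 0.10, RFC2 at 1.00 ± 0.09, RFC5 at 0.76 ± 0.09, RFC4 at 0.74 ± 0.10 and the large subunit RFC1 at only 0.21 ± 0.05. RFC1 was at 66.1, 59.8 and 63 CPM before and at 74.5, 75.8 and 72.2 CPM after stimulation.

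The 3 RPA genes rose little, and none was a DEG. RPA2 went from 29.4, 28.1 and 30 CPM to 45.7, 43.9 and 46.8 CPM (0.61 ± 0.06, adjusted p = 6.05e-12), and RPA1 from 39.2, 40.4 and 41 CPM to 45.2, 47.9 and 47.6 CPM (0.19 ± 0.06, adjusted p = 0.00612). Neither pair of groups overlapped, and RPA3 lay between them at 0.37 ± 0.08. Okazaki fragment processing rose at all 3 genes. FEN1, the flap endonuclease, went from 10.5, 12.4 and 10.1 CPM to 41.8, 37.7 and 46 CPM (1.87 ± 0.08, adjusted p = 8.76e-26). DNA2, a nuclease and helicase, rose by 1.25 ± 0.13, and the ligase LIG1 went from 16.7, 17.4 and 16.9 CPM to 28.5, 24.6 and 25.4 CPM (0.59 ± 0.08). Both tested CAF-1 subunits rose, CHAF1B from 4.45, 4.38 and 4.59 CPM to 8.55, 9.76 and 9.74 CPM (1.03 ± 0.14) and CHAF1A from 8.37, 9.48 and 9.62 CPM to 16.7, 16.6 and 15 CPM (0.77 ± 0.10).

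**Figure D2:**
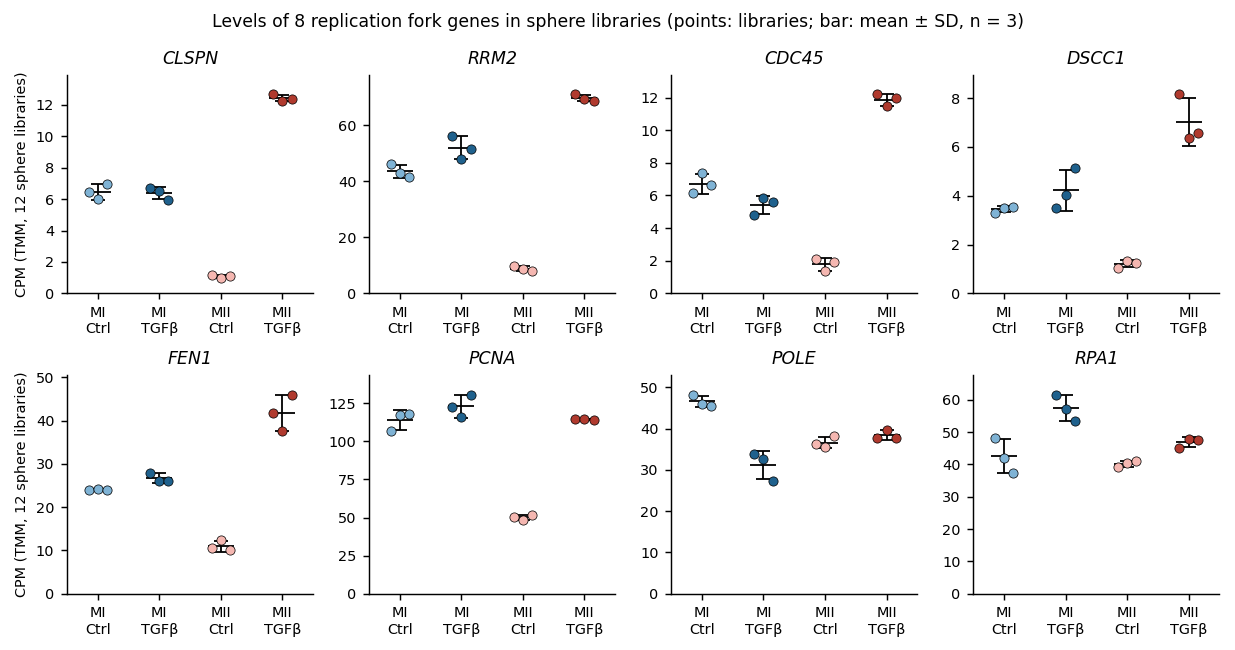
CPM (y axis, from 0) of 8 of the genes in the 12 sphere libraries, by group (x axis), with points for libraries and bars for mean ± SD (n = 3). CLSPN, RRM2, CDC45, DSCC1, FEN1 and PCNA are lowest in all 3 MII Ctrl libraries, whereas POLE is lowest in MI TGFb, at 27.4 to 33.8 CPM.

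Promoters of the genes at both ends of this range are shown because their letters can be set against the size of the response. RefSeq promoters (GRCh38.p14, 250 bases before to 50 after the start) were at hand for 33 of the 39 genes, and not for DSCC1, GINS4, POLD3, RPA2, RPA3 and DNA2. The words searched, on both strands, were TTTCCCGC, TTTGGCGC, TTTGCCGC and TTTCGCGC for E2F, CCAAT for NF-Y, and TTTGAA and TTCGAA for CHR, the cell cycle homology region, and no word of one kind contains another. An E2F word was present in 13 of the 33 promoters (39.4%) and in 3.33% of all 27305 promoters of that length. CCAAT was present in 18 (54.5%), against 35.7% of all, and a CHR word in RRM1 alone (3.03%), against 16.6% of all. In stimulated MII-spheres the 13 genes with an E2F word had a median log2 fold-change of 1.24, with a range from 0.03 to 3.50. The 20 genes without had 0.81, with a range from 0.19 to 2.97, so the ranges overlapped widely. For CCAAT the order was the reverse, with a median of 0.78 in the 18 genes with it and 1.03 in the 15 without. In siSMAD2/3/4 against Csi the medians were -0.83 with and -0.82 without an E2F word. For CCAAT both medians were -0.82 there. Promoters were not matched for base composition, and the part of base composition in the shares of promoters with a word was not tested. A match is a description of letters, not a site of binding.

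The 6 promoters below are on the gene's strand, 5′ to 3′, with E2F words and CCAAT, as written or as the reverse complement, in capitals. CLSPN (chr1:35769929-35770228, minus strand), RRM2 (chr2:10122489-10122788, plus strand) and CDC45 (chr22:19479670-19479969, plus strand) had the 3 highest responses of MII-spheres. RPA1 (chr17:1829755-1830054, plus strand), POLE (chr12:132687293-132687592, minus strand) and TOPBP1 (chr3:133661892-133662191, minus strand) had the 3 lowest.
CLSPN: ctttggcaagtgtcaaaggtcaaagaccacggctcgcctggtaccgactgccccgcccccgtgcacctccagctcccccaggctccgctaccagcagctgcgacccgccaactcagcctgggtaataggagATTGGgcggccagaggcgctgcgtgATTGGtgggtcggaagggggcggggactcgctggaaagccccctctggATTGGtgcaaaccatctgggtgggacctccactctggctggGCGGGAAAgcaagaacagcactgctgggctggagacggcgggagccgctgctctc
RRM2: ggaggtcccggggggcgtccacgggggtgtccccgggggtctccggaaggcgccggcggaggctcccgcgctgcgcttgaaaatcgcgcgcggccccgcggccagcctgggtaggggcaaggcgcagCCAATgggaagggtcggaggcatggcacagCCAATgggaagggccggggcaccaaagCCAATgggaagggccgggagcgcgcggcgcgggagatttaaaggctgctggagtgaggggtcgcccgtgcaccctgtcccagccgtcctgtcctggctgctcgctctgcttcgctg
CDC45: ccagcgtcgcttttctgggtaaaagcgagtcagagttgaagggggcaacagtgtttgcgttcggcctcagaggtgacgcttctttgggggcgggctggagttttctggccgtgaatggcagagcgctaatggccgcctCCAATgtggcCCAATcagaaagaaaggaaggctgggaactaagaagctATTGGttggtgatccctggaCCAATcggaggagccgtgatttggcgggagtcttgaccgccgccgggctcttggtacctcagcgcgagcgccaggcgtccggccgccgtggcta
RPA1: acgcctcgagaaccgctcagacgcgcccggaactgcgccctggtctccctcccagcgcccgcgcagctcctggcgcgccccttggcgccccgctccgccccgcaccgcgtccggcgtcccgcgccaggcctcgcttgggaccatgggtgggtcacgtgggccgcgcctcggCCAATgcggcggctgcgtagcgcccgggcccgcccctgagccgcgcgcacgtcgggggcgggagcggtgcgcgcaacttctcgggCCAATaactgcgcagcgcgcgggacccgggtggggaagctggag
POLE: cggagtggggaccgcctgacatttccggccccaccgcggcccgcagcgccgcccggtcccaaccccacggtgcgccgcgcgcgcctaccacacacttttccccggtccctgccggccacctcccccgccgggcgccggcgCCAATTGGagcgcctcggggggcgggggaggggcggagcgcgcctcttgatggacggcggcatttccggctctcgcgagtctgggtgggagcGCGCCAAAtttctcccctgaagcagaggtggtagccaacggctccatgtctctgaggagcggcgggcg
TOPBP1: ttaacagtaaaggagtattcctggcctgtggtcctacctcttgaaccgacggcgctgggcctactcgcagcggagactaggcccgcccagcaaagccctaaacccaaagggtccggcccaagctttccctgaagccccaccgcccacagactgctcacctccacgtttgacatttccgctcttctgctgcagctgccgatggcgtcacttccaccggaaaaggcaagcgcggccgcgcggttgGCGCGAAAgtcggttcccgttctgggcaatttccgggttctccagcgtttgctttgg
CLSPN holds an E2F word and 3 CCAAT words, RRM2 3 CCAAT words and CDC45 4 CCAAT words. None of the listed E2F words is in the windows of RRM2 and CDC45. Words that differ from the listed ones by a letter, such as TTTGGCGG in CDC45, were not searched. The RRM2 start used here lies 2041 bases from the gene start of the count files. POLE and TOPBP1, which were not called in MII-spheres, each hold an E2F word close to the start, at positions -18 and -7 from it.

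MI-spheres responded to the same TGFβ1 stimulation with small changes in both directions. Of the 39 genes, 11 rose (28.2%) and 4 fell (10.3%), while 28.7% and 27.4% of all 16863 genes tested rose and fell. The share that rose was near that of all genes. No member was a DEG, the median log2 fold-change was 0.09, and the groups did not overlap for 20 of the 39 genes, where 62% of all genes tested did not. POLD2, a small subunit of polymerase δ, had the highest value, from 59.1, 60.7 and 61 CPM to 107.4, 97.8 and 103.9 CPM (0.75 ± 0.06, adjusted p = 3.73e-10). All 3 RPA genes rose, RPA3 by 0.45 ± 0.08, RPA1 by 0.40 ± 0.08 and RPA2 by 0.28 ± 0.07. GINS3, RFC2, GINS1, RFC1, TK1, RRM2 and RRM1 were the others that rose, by 0.14 for RRM1 to 0.40 for GINS3. With DESeq2 the calls of GINS3, GINS1 and TK1 were lost (adjusted p = 0.0673, 0.11 and 0.116). That of RRM1 was lost in edgeR with no low-count filter (adjusted p = 0.161).

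The 4 genes that fell in MI-spheres included both a loader and a polymerase subunit. CHTF18 fell from 13.1, 13.7 and 12.6 CPM to 8.39, 10.1 and 7.5 CPM (-0.62 ± 0.11, adjusted p = 8.31e-05) and POLE from 48.2, 45.9 and 45.6 CPM to 33.8, 32.5 and 27.4 CPM (-0.60 ± 0.08, adjusted p = 8.86e-07), without overlap in either case. CDC45 and CHAF1A fell by 0.32 and 0.24 on the log2 scale, and both calls were lost with DESeq2 (adjusted p = 0.256 and 0.287). CLSPN was not called, at 6.42, 5.98 and 6.99 CPM without and 6.69, 6.5 and 5.93 CPM with TGFβ1, and the interval of its log2 fold-change ran from -0.29 to 0.20.

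Whether the lines differed in their response was tested with an interaction term (cell line by TGFβ) over all 12 sphere libraries. It was positive, meaning a higher response in MII-spheres, for 33 of 39 genes and negative for none, where 12.6% and 9.75% of all 18591 genes tested were called in those directions. A positive difference above 1 was called for 20 genes, against 3.75% of all genes. CLSPN (3.56 ± 0.21), CDC45 (3.09 ± 0.21), RRM2 (2.75 ± 0.10) and GINS2 (2.27 ± 0.18) had the highest values. The genes without a call were RFC1, POLD2, TOPBP1, TIPIN, RPA1 and RPA3. The interval (± 1.96 SE) of each assumes a normal distribution and is not adjusted across genes, so it is approximate and likely too narrow. It ran from -0.18 to 0.15 for RFC1, from -0.22 to 0.10 for POLD2 and from -0.31 to 0.17 for RPA3. It ran from -0.40 to -0.00 for RPA1, from -0.02 to 0.31 for TOPBP1 and from 0.14 to 0.92 for TIPIN (adjusted p = 0.0519), the last of which was called without MII Ctrl replicate 1 (adjusted p = 0.015), MI TGFb replicate 3 (0.0353) or MII TGFb replicate 1 (0.0376). Without MI Ctrl replicate 1 or MI TGFb replicate 3, 1 gene, RPA1, was called in the negative direction (-0.33 and -0.28).

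The unstimulated lines already differed, and the comparisons between lines share libraries with the TGFβ responses above. Without TGFβ1, 36 of 39 genes were lower in MII- than in MI-spheres and none was higher, where 32.5% of all 17862 genes tested were lower and 31.7% higher. As DEGs, 14 genes were lower, against 7.62% of all genes. The median log2 difference was -0.64, and none was higher at an unadjusted p under 0.05 or with DESeq2. CLSPN had the lowest value, with 6.42, 5.98 and 6.99 CPM in MI Ctrl and 1.18, 0.988 and 1.09 CPM in MII Ctrl (-2.60 ± 0.19, adjusted p = 1.9e-17). RRM2 was at 46.2, 43 and 41.6 CPM in MI Ctrl against 9.68, 8.59 and 8.09 CPM in MII Ctrl (-2.33 ± 0.08, adjusted p = 6.21e-33). GINS1 was at 10.8, 12.4 and 11.3 CPM against 2.29, 2.04 and 3.12 CPM (-2.24 ± 0.14, adjusted p = 3.36e-20). In each of the 3 genes every MII Ctrl library lay below every MI Ctrl library. The smallest called differences were those of TOPBP1 (-0.14 ± 0.05), TIMELESS (-0.29 ± 0.09) and RPA3 (-0.30 ± 0.07), and POLA1, POLD3 and RPA1 were not called, at -0.07 ± 0.07, -0.03 ± 0.08 and -0.09 ± 0.06.

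**Figure D3:**
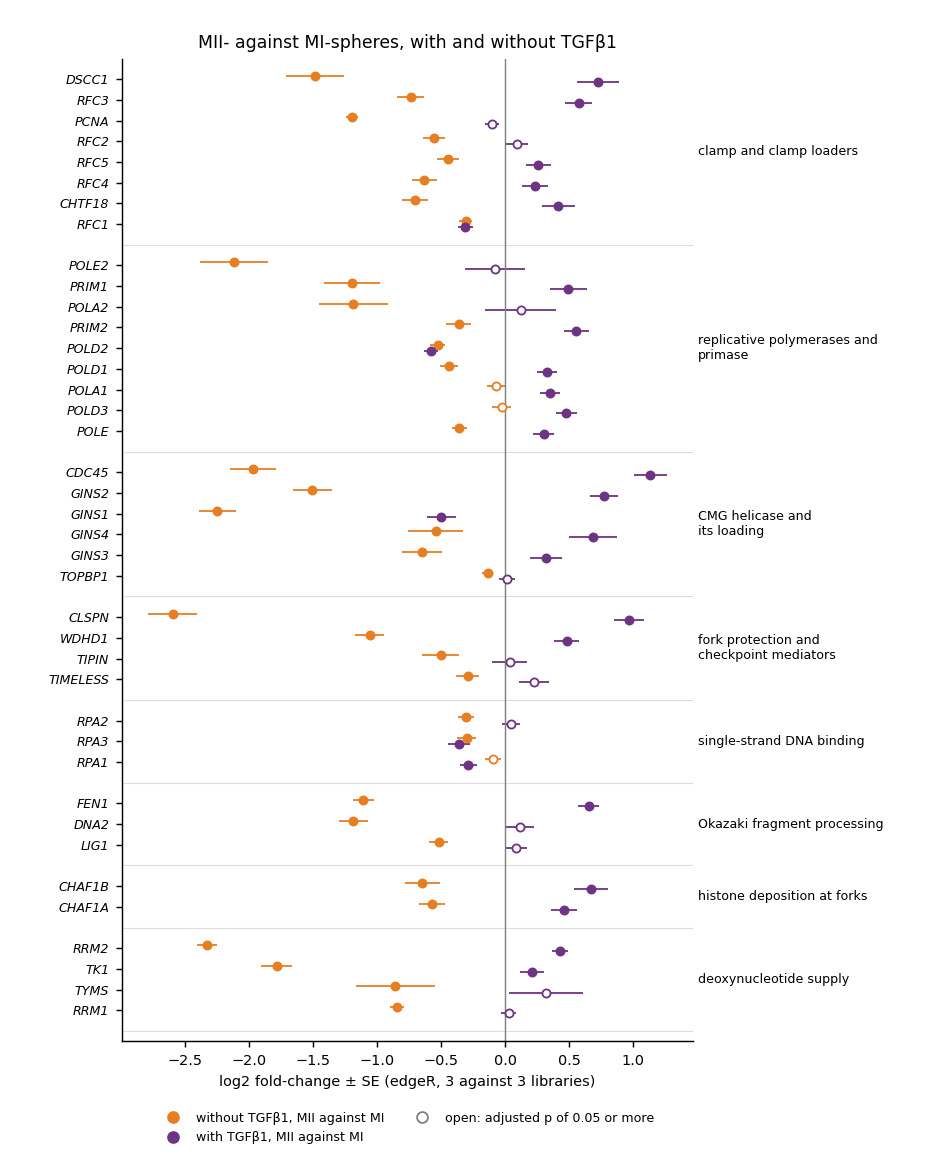
Log2 difference (x axis, ± SE) between MII- and MI-spheres for each gene, without and with TGFβ1, with open symbols where the adjusted p was 0.05 or more. Without TGFβ1 36 filled symbols lie left of 0, and with it 22 lie right and 5 left of 0.

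With TGFβ1 in both lines, 22 genes were higher in MII- than in MI-spheres and 5 were lower, with a median of 0.30, while 31.1% and 31.6% of all 15878 genes tested were higher and lower. CDC45 had the highest difference, with 4.79, 5.82 and 5.57 CPM in MI TGFb and 12.2, 11.5 and 12 CPM in MII TGFb (1.13 ± 0.13, adjusted p = 5.62e-08). CLSPN (0.97 ± 0.12) and GINS2 (0.77 ± 0.11) came next. Both CAF-1 genes and 6 of 9 polymerase and primase genes were higher. The lower genes were POLD2 (-0.58 ± 0.06), GINS1 (-0.50 ± 0.11), RPA3 (-0.36 ± 0.09), RFC1 (-0.31 ± 0.06) and RPA1 (-0.29 ± 0.07). GINS1 stayed below the MI level, at 8.68, 9.56 and 11 CPM in MII TGFb and 13.6, 12.9 and 14.8 CPM in MI TGFb, while GINS2, GINS3 and GINS4 were above it. PCNA was not called (-0.10 ± 0.05), at 123, 116 and 130.6 CPM in MI TGFb and 115, 115 and 114 CPM in MII TGFb.

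Other gene lists of replication give the setting of these values. Of all genes tested, 29.9% rose and 27.6% fell in MII-spheres, and 28.7% rose and 27.4% fell in MI-spheres. Interactions were positive for 12.6% and negative for 9.75% of all genes tested. Of 22 genes of origin licensing and firing, 19 rose and none fell in stimulated MII-spheres, with MCM10, which helps to activate the helicase, at 3.47 ± 0.19 and ORC3, an origin recognition subunit, lowest among those called at 0.22 ± 0.07. In MI-spheres 3 rose and 2 fell, the called values running from -0.30 ± 0.07 for MCM5 to 0.35 ± 0.06 for ORC2. Of these 22 genes, 16 had a positive interaction (72.7%), with MCM10 highest at 3.47 ± 0.22, and 1, ORC2, a negative one (-0.29 ± 0.08). Without TGFβ1, 18 of the 22 were lower in MII- than in MI-spheres (81.8%) and none was higher, with MCM10 lowest at -2.81 ± 0.20. Of all genes tested 32.5% were lower there. The licensing list thus shared both patterns with the fork genes. Of 36 other enzymes of nucleotide synthesis and salvage, 26 rose (72.2%) and none fell in MII-spheres. In MI-spheres 30 rose (83.3%) and 1, TYMP, fell (-0.38 ± 0.06). NME1, a nucleoside diphosphate kinase, was highest in both lines (1.19 ± 0.07 and 1.26 ± 0.08). For that list 8 interactions were positive (22.2%) and 4 negative (11.1%). They ran from 0.87 ± 0.13 for DCK, deoxycytidine kinase, to -0.47 ± 0.06 for IMPDH2, an enzyme of guanine nucleotide synthesis. Of 14 other polymerase genes tested in MII-spheres, 6 rose (42.9%) and 5 fell (35.7%), not far from the shares of all genes. Their called values ran from 2.44 ± 0.17 for the end-joining polymerase POLQ to -0.57 ± 0.12 for POLD4. Of 5 other clamp and loader genes tested, 2 rose (40%) and 1 fell (20%). ATAD5, which unloads PCNA, was at 0.67 ± 0.15 and RAD9A, of the checkpoint clamp, at -0.82 ± 0.11.

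All 6 proliferation markers rose in MII-spheres, from 1.06 ± 0.08 for CCNB1 to 2.15 ± 0.06 for TOP2A, and all 6 were lower in unstimulated MII- than MI-spheres. In stimulated spheres 4 of the 6 were lower in MII- than in MI-spheres and none was higher, with CCNB1, the mitotic cyclin, at -1.44 ± 0.08 and TOP2A at -0.18 ± 0.06. MKI67 was at 27.1 to 32 CPM in MI Ctrl, 25 to 33.9 CPM in MI TGFb, 6.45 to 8.23 CPM in MII Ctrl and 28.8 to 33 CPM in MII TGFb. In the MI response 4 of the 6 rose and none fell, with a median of 0.25, while 11 of the 39 fork genes rose and 4 fell. The interaction was positive for all 6, from 0.58 ± 0.11 for CCNB1 to 2.07 ± 0.14 for MKI67, where 12.6% of all genes tested were positive. Proliferation markers moved with the fork genes in the MII response, in the unstimulated line difference and in the interaction. The part of these markers in the fork gene values was not tested.

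Markers of mammary basal epithelium (KRT5, KRT14, KRT17, TP63, ITGB4 and COL17A1) moved there as well. In the MII response 5 of the 6 rose, 4 of them as DEGs, with a median of 1.70, and in unstimulated MII- against MI-spheres 4 were lower and 1, KRT14, was higher, with a median of -2.05. In the MI response 5 of the 6 rose too, with a median of 1.05. The 6 markers summed to 2042 to 2101 CPM in MI Ctrl, 3895 to 4033 CPM in MI TGFb, 836 to 887 CPM in MII Ctrl and 1866 to 2026 CPM in MII TGFb, and TP63 was the one below 1 CPM, in MII Ctrl. Their part in the fork gene values was not tested.

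In MDA-MB-231 cells, silencing of SMAD2, SMAD3 and SMAD4 lowered the fork genes almost without exception. The targeted mRNAs were lower in all 3 siSMAD2/3/4 libraries, with SMAD2 at 23.4 to 24.4 CPM against 89 to 93.1 CPM in Csi, SMAD4 at 15.9 to 17.9 CPM against 54.6 to 57 CPM, and SMAD3, least reduced, at 162 to 172 CPM against 262 to 278 CPM. Of the 39 genes, 38 fell and none rose, where 19.7% of all 17696 genes tested fell and 16.3% rose. As DEGs, 7 genes fell, against 0.927% of all genes. The median log2 fold-change was -0.82, and none rose at an unadjusted p under 0.05 or with DESeq2. TIPIN was not called (-0.22 ± 0.10), and 21.1% of its exon length is shared with a pseudogene on the same strand, RPL9P25.

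The values lay closer together than in spheres. CLSPN fell from 66.6, 68.2 and 65.1 CPM to 29.2, 29.1 and 27.2 CPM (-1.22 ± 0.05, adjusted p = 2.27e-17). TYMS fell from 61.5, 61.8 and 61.8 CPM to 29, 30 and 25.9 CPM (-1.12 ± 0.06), and FEN1 from a mean of 107.6 ± 1.48 CPM (SD, n = 3) to 51, 55.4 and 47.8 CPM (-1.06 ± 0.05). In each case the lowest Csi library was well above the highest siSMAD2/3/4 library. PCNA was at 148, 169 and 164 CPM in Csi and at 82.7, 84.3 and 81.5 CPM in siSMAD2/3/4 (-0.95 ± 0.05). DSCC1 (-1.03), GINS2 (-1.02), PRIM1 (-1.01) and CDC45 (-1.01) completed the DEGs. The called genes that fell least were POLD2 (-0.23 ± 0.04), RFC1 (-0.33 ± 0.05) and RPA1 (-0.37 ± 0.04). POLE and TOPBP1, which were not called in MII-spheres, fell here, POLE from 142, 129.3 and 130.4 CPM to 79.3, 77.7 and 71.9 CPM (-0.81 ± 0.05) and TOPBP1 from 77.9, 79.3 and 78.8 CPM to 53.5, 50.9 and 54 CPM (-0.58 ± 0.05).

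RRM2 and RRM1 fell by 0.94 and 0.82 on the log2 scale, and their ratio per kb was 0.434 ± 0.00966 in Csi and 0.399 ± 0.0162 in siSMAD2/3/4. All 6 proliferation markers fell too, from -0.49 ± 0.04 for CCNB1 to -0.87 ± 0.05 for AURKB, and their part in the fork gene values was not tested. Of the 22 licensing and firing genes 19 fell, with CDT1, the licensing factor, lowest at -1.31 ± 0.08. Of the 36 other nucleotide enzymes 23 fell (63.9%) and 3 rose (8.33%), where 19.7% and 16.3% of all genes tested did. TK2, the mitochondrial thymidine kinase, was highest at 0.40 ± 0.06. Library names in the count files place siSMAD2/3/4 replicates 1 and 2 on another flow cell than replicate 3 and the Csi libraries, whereas the batch label gives all 6 libraries the same one, and which is right is not known. With flow cell as in the library names as a term, 38 genes were called lower, with a median of -0.84. That fit compares 1 library, replicate 3, with Csi and assumes that it varies like the other libraries.

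**Figure D4:**
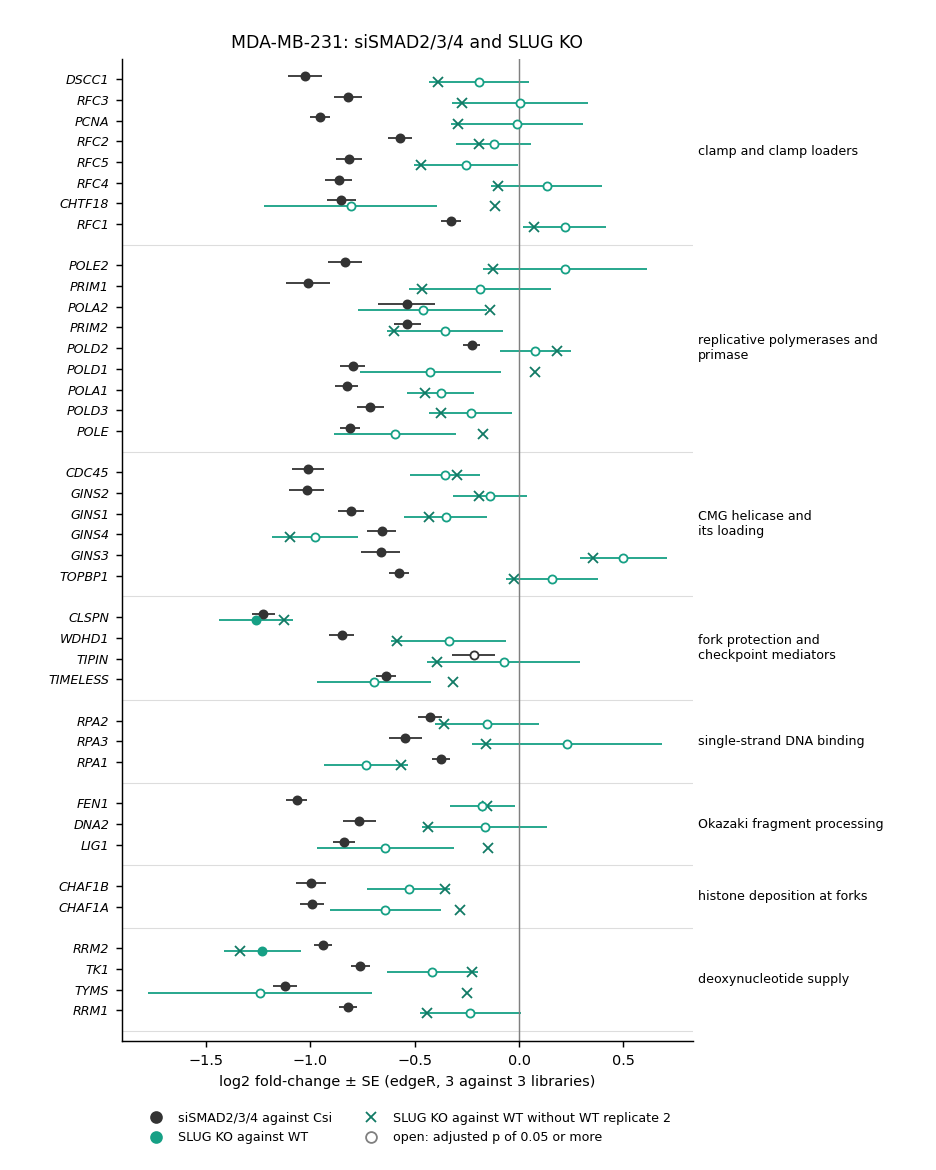
Log2 fold-change (x axis, ± SE) of each gene in MDA-MB-231 for siSMAD2/3/4 against Csi and for SLUG KO against WT, with open symbols where the adjusted p was 0.05 or more and crosses for SLUG KO against WT without WT replicate 2. All siSMAD2/3/4 points lie left of 0, and among SLUG KO points CLSPN and RRM2 are the filled ones.

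The libraries labelled SLUG KO gave fewer calls against WT, and the count of calls changed when single libraries were left out. SNAI2 mRNA was higher in the libraries labelled SLUG KO, at 61.4 to 67.3 CPM, than in WT, at 22.4 to 35.2 CPM (1.10 ± 0.21, adjusted p = 0.0399). A count over the whole gene does not check an edit of exon 1. Of the 39 genes, 2 fell, both as DEGs, and none rose, where 1.89% of all 17428 genes tested fell, 1.8% fell as DEGs and 1.45% rose. CLSPN fell from 147, 183 and 142 CPM to 63.1, 71.5 and 62.5 CPM (-1.26 ± 0.18, adjusted p = 0.0128), and RRM2 from 264, 214 and 300.3 CPM to 105.8, 119.2 and 107.1 CPM (-1.23 ± 0.19, adjusted p = 0.0159). In both genes each SLUG KO library was below each WT library. Both calls were lost when any SLUG KO library or WT replicate 1 was left out (adjusted p from 0.0554 to 0.158), and that of RRM2 also without WT replicate 3 (0.0522). At an unadjusted p under 0.05, 7 genes were lower and 1 was higher, and DESeq2 called 3 lower and 0 higher.

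WT replicate 2 differed from the other WT libraries in many fork genes. TYMS was at 15.2, 62.3 and 16.7 CPM in WT replicates 1, 2 and 3, CHTF18 at 41.1, 123 and 46.9 CPM and POLE at 139.5, 272 and 134 CPM. RPA3 was at 47.2, 15.1 and 62.3 CPM and PCNA at 252, 124 and 303 CPM. This library was thus high in some members and low in others. Without it, 21 genes fell (53.8%) and 1 rose in SLUG KO, where 14.4% of all 17909 genes tested fell and 16.8% rose. The median log2 fold-change of the 39 genes was then -0.29, against -0.25 with it. RRM2 (-1.34), CLSPN (-1.12) and GINS4 (-1.10) were lowest without it, PRIM2 came next at -0.60, and GINS3 was the gene that rose (0.36). This fit compares 3 libraries with 2.

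**Figure D5:**
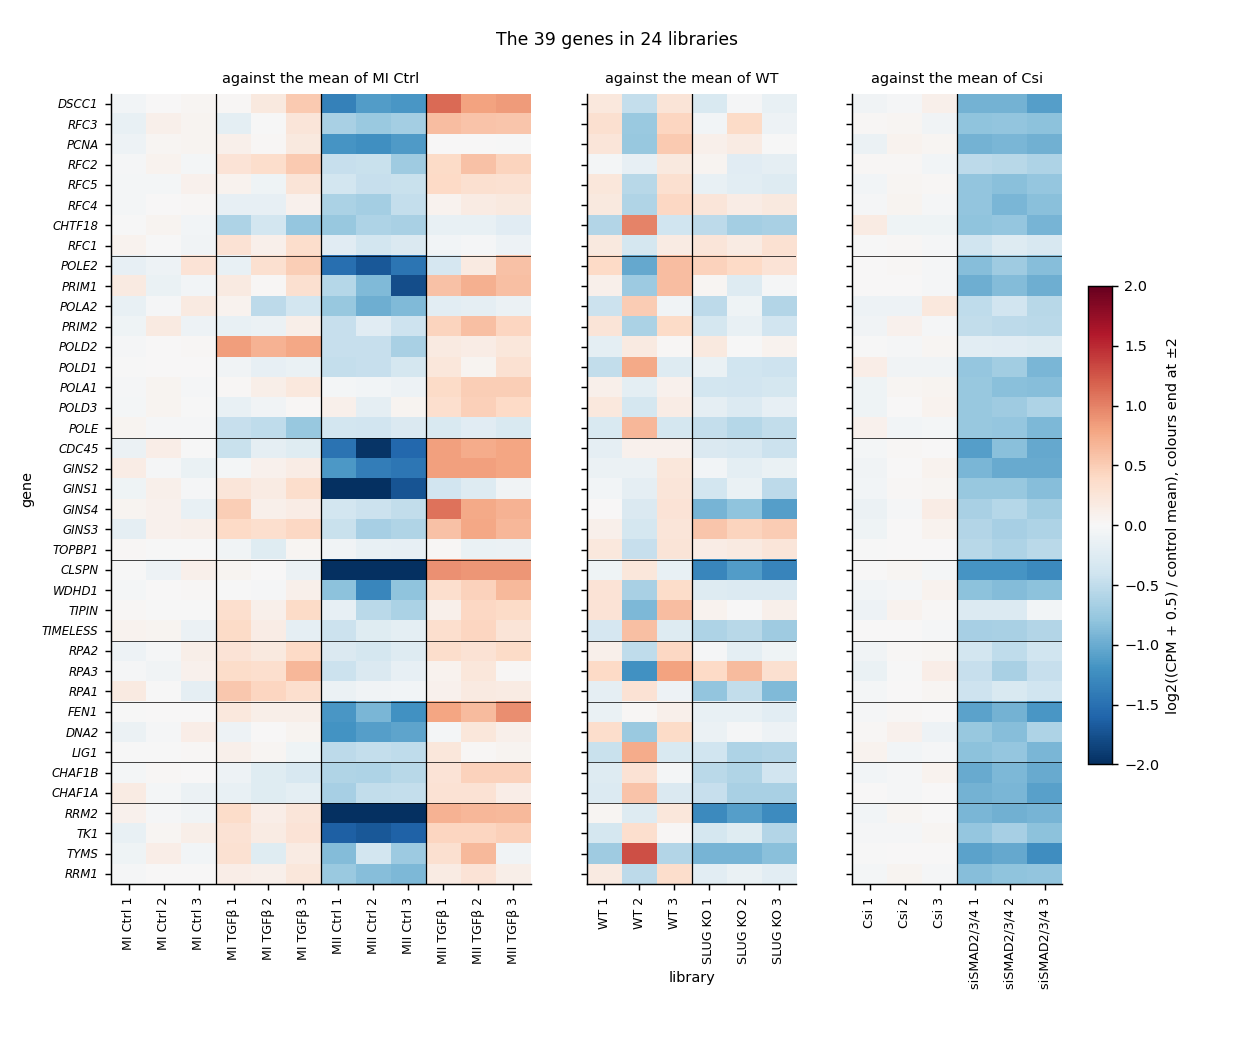
Heat map of the 39 genes (rows, by role) in the 24 libraries (columns), as log2 of CPM plus 0.5 against the mean of the control group of the experiment (MI Ctrl, WT or Csi), with colours ending at 2 in either direction. Most genes in the MII Ctrl and siSMAD2/3/4 columns are below their control, and the WT 2 column differs from WT 1 and WT 3 in both directions.

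Levels of different genes were compared per kb of exon length, after TMM scaling over all 24 libraries, as a description. PCNA had the highest level in every group, at 36.2 CPM per kb in MII Ctrl, 83.3 in MI Ctrl, 113 in Csi and 152 in SLUG KO. In MII Ctrl the lowest were CLSPN at 0.115, POLA2 at 0.181, POLE2 at 0.255 and TYMS at 0.329 CPM per kb, and in MII TGFb the lowest was POLA2 at 0.351. CLSPN relative to TIMELESS, both per kb, was 0.236 ± 0.0363 in MI Ctrl, 0.214 ± 0.0295 in MI TGFb, 0.0488 ± 0.00821 in MII Ctrl and 0.355 ± 0.0239 in MII TGFb. MII Ctrl was lowest and MII TGFb highest without overlap, and the MI groups overlapped. As CLSPN had the highest and TIMELESS the lowest MII response among fork protection genes, this rise in MII-spheres restates those responses. In MDA-MB-231 the same ratio was 0.586 ± 0.00872 in Csi and 0.39 ± 0.0277 in siSMAD2/3/4, and 1.44 ± 0.309 in WT and 0.922 ± 0.0365 in SLUG KO. RRM2 relative to RRM1 was 0.476 ± 0.079 in WT and 0.231 ± 0.0073 in SLUG KO, without overlap. In MI-spheres it was 0.286 ± 0.0187 without and 0.305 ± 0.0254 with TGFβ1, and these groups overlapped. Ratios of POLE2 to POLE, RPA2 to RPA1, CDC45 to PCNA and GINS1 to PCNA were also computed. Each was higher in MII TGFb than in MII Ctrl without overlap, and each overlapped between WT and SLUG KO. TYMS was at 0.329 to 0.842 CPM per kb in the means of the sphere groups. In MDA-MB-231 its means were 25.2 in Csi, 11.6 in siSMAD2/3/4, 12.1 in WT and 5.22 in SLUG KO. Single WT libraries ranged from 5.75 to 24 CPM per kb. The spheres, the SLUG pair and the siRNA pair are different experiments, so levels between them are given side by side only.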

How the data were processed

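RNA was sequenced from 24 libraries, 3 per group, which the labels call biological replicates. Before deposit the authors used Trimmomatic for trimming and STAR for alignment, and counted fragments over exons of GENCODE 38 genes (GRCh38.p13) with featureCounts 2.0.0, and the deposited values are raw counts per gene. Per the file headers, counting was unstranded, needed both mates with a mapping quality of at least 30 and skipped fragments that overlap several genes, so overlapping genes lose counts. Symbols were matched for 60507 of 60708 identifiers (99.7%), and totals were 14124688 to 38406952 counts per library. The SE beside each value gives its precision.

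For every comparison, the libraries of its groups alone were modelled in edgeR 4.0.16 (R 4.3.3, limma 3.58.1) after filterByExpr and TMM, with p from the quasi-likelihood test adjusted by Benjamini-Hochberg across the genes that passed. SE is the absolute log2 fold-change divided by the root of the F statistic. The interaction used all 12 sphere libraries. CPM beside comparisons were scaled within an experiment, because scaling over all 24 libraries moved MI TGFb values relative to the fits, and values per kb were scaled over all 24. Full values per library are given for the members with the highest and the lowest log2 fold-change of each of 8 roles in MII-spheres. The 3 highest and 3 lowest called genes of a comparison and genes called against the majority are named, and other genes shown in full were chosen after their values were seen. Members and lists were chosen with earlier results of these data known. The fits were also run on counts simulated with independent libraries from edgeR's own estimates. Such counts follow the model by design, so they could not test features such as WT replicate 2 or the flow cell.

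Alternatives were DESeq2 1.42.0, its size factors in edgeR, no filter (at least 1 count), at least 10 counts in every library, the replicate number as a block, a gene length trend (lowess span 0.3) removed, both together, 1 fit of the 12 sphere libraries together, a term for flow cell, and leaving out each library. A search for PCNA-binding motifs in the proteins was not run. Promoters are from RefSeq, and 29 of 33 starts lay within 1000 bases of the gene start in the files. The ATAC-seq samples of the series were not analysed here.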

Additional observations from a re-analysis of the deposited data

Results flagged for a closer look

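The response to TGFβ1 differed between MII- and MI-spheres for 33 of the 39 genes by the test of the interaction in edgeR, and each value here is the log2 difference of the responses, MII minus MI. The adjusted p ranged from 2.65e-22 for RRM2 to 0.0415 for TYMS. Among fork protection genes the values were CLSPN (3.56), WDHD1 (1.53) and TIMELESS (0.51). Genes of the helicase and its loading had CDC45 (3.09), GINS2 (2.27), GINS1 (1.74), GINS4 (1.22) and GINS3 (0.96). Clamp and loader genes had DSCC1 (2.20), RFC3 (1.30), CHTF18 (1.12), PCNA (1.09), RFC4 (0.85), RFC5 (0.70) and RFC2 (0.64). Polymerase and primase genes had POLE2 (2.03), PRIM1 (1.68), POLA2 (1.30), PRIM2 (0.91), POLD1 (0.76), POLE (0.65), POLD3 (0.50) and POLA1 (0.41). Okazaki fragment genes had FEN1 (1.75), DNA2 (1.29) and LIG1 (0.60), and the single-strand binding gene RPA2 had 0.34. The CAF-1 genes had CHAF1B (1.31) and CHAF1A (1.02), and deoxynucleotide supply had RRM2 (2.75), TK1 (1.99), TYMS (1.17) and RRM1 (0.86). For POLE and CHTF18 the difference includes a fall in MI-spheres (-0.60 and -0.62), and for POLE no call in MII-spheres. With 3 libraries a group, no single library was tested as an outlier.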

How the results depend on the processing

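No member called in a comparison turned its direction under any alternative run. In MII-spheres 37 genes rose in every alternative except the filter of 10 counts in every library, which tested 38 genes and called 36. In MI-spheres the count that fell (4) was 2 with DESeq2, 2 with no low-count filter and 2 with all 12 sphere libraries in 1 fit, but 6 with at least 10 counts in every library, which added POLD1 and TOPBP1, and the cause was not tested. Leaving out each library gave 7 to 12 genes that rose and 2 to 3 that fell in MI-spheres (7 rose without MI Ctrl replicate 1 or MI TGFb replicate 1), 34 to 37 lower in unstimulated and 18 to 21 higher and 5 to 6 lower in stimulated MII- against MI-spheres, 38 to 39 lower in siSMAD2/3/4, and 31 to 34 positive and 0 to 1 negative interactions. In SLUG KO it gave 0 to 21 lower and 0 to 1 higher, with 21 without WT replicate 2, 1 without WT replicate 3 and 0 without WT replicate 1 or any SLUG KO library. With the replicate number as a block the SLUG KO count that fell (2) was 0, and with the block and the gene length trend removed 0. Same-numbered libraries did not deviate together (correlations from -0.123 to 0.032). Whether they were prepared in pairs is not given in the sources used here. In no other comparison did the block move a count by more than 1.5 times. Without the low-count filter the median of all genes lay at -0.25 in MII-spheres, -0.26 in the stimulated lines, -0.17 in SLUG KO and -0.18 for the interaction. Calls lost most often were those of TK1, RFC4, GINS3 and RFC5 in the stimulated lines, TYMS and RPA2 in the interaction, and GINS1, RRM1, TK1, CHAF1A and CDC45 in MI-spheres. Counts were low in MII Ctrl for POLE2, TYMS, CLSPN, DSCC1 and PRIM1, at 12 to 19, 9 to 32, 18 to 30, 16 to 40 and 16 to 62 counts.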

Other observations

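Among the other enzymes of nucleotide supply, RRM2B, the p53-inducible small subunit of ribonucleotide reductase, differed between unstimulated lines in the direction opposite to RRM2, at 1.32 ± 0.04 for MII- against MI-spheres (adjusted p = 1e-34), and SAMHD1, which degrades deoxynucleotides, was lower at -1.28 ± 0.07. In stimulated spheres IMPDH2 was lower in MII- than in MI-spheres (-1.33 ± 0.05) and SHMT1, a serine hydroxymethyltransferase of the folate cycle, was higher (1.18 ± 0.05). In SLUG KO the sole call in that list was CTPS1, CTP synthase, which fell (-1.05 ± 0.17, adjusted p = 0.0198), with the limits given for WT replicate 2.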
